A study of Cucumis sativus with 18 samples.

Results

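The genes described here are those of cucumber (Cucumis sativus) whose RNA level in an ovary culture was highest at day 20 by a wide margin. The rule took the mean RPKM of the 3 libraries at each time. RPKM counts the reads of a gene divided by its length in kilobases and by the M reads of its library (M for mega). A gene qualified with a day 20 mean of at least 5 and with (day 20 mean + 1) at least 2 times the highest (mean + 1) of the other 5 times. That quotient is called the ratio below. Of the 23248 genes in the files 272 qualified, and the 200 with the highest ratio are the members. The other 72 were left out by the limit of 200 genes.

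In ovary culture, unpollinated ovaries or ovules are placed on medium so that cells of the unfertilised female gametophyte divide and form embryos. Such embryos can give haploid plants, which breeders double to obtain fully homozygous lines. A plant embryo passes from a ball of cells through heart-shaped stages to one with cotyledons, and genes that act at only some of these stages show as short rises of RNA. The files do not pair the gene IDs with names, and the RefSeq gene table matched 0 of the 23248 IDs, so genes are given by ID and no function is stated.

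The 18 libraries cover 6 times with 3 biological replicates each: unpollinated ovaries taken fresh, ovules cultured for 2 days, and embryos from cultures of 10, 20, 30 and 60 days. Genotype, medium and growth conditions are not in the labels. The label names ovaries, ovules or embryos by time. What was sampled and the time thus cannot be told apart at the first 2 steps, nor between day 60 and fresh ovaries. The labelled tissues were not checked against markers because no ID carries a name. Replicates 1 and 2 held 21.8 to 34.0 M reads in genes and replicate 3 held 48.9 to 72.5 M. Replicate 1 of day 10 and of day 20 list 17653 and 18591 genes above 0, fewer than the other 16 libraries, and members were above 0 in 189 and 200 of 200 cases there.

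The ratio was 55.4 for 1 member and at most 10.6 for every other, with a median of 3.17. It was at least 5 for 35 members, at least 4 for 59 and at least 3 for 118. The lowest ratios among the members were those of Csa5G198120, Csa7G375820 and Csa2G372810, at 2.31, 2.29 and 2.29. Just outside the limit lay Csa1G028070, Csa1G597020 and Csa5G608510, at 2.29, 2.28 and 2.27, so the border falls within a continuous series. Csa4G016440, at 2.00 after rounding, was the gene closest under the 2-fold margin.

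Because the day 20 values chose the members, their height at day 20 is a description and was not tested. The day 20 mean ranged from 5.05 to 2903 RPKM with a median of 45.2. It was at least 100 in 63 members and at least 1000 in 7, and under 10 in 19. The fewest reads behind a day 20 mean were 224 over its 3 libraries, and the median was 8281.5. In 198 of the 200 members the lowest of the 3 day 20 libraries lay above the highest of the other 15. The rule favours such a separation, as it asks for a margin of at least 2 times, and the share over all genes was not computed. The exceptions were Csa4G297470, at 1.89 RPKM in its lowest day 20 library and 3.26 in its highest other one, and Csa3G716370, at 76.2 and 88.3.

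**Figure D1:**
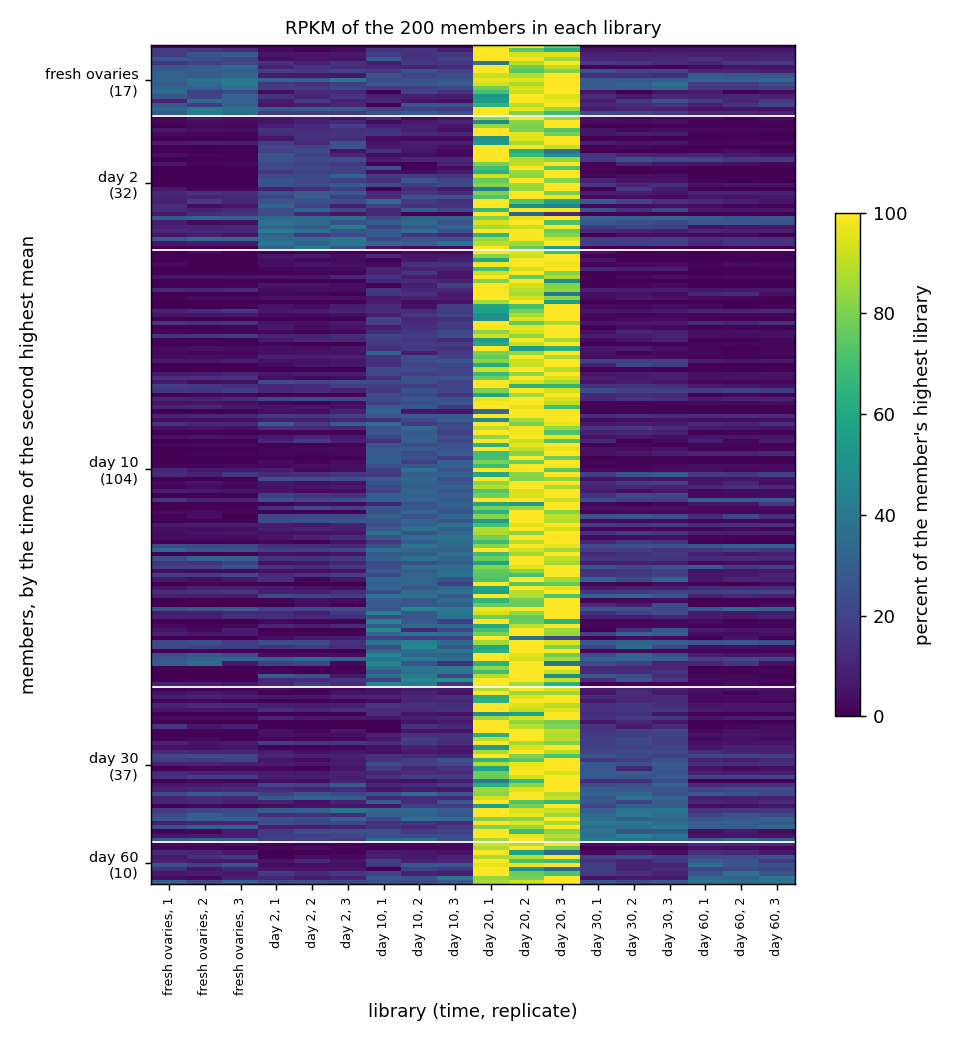
Heat map of the 200 members (rows) in the 18 libraries (columns, by time and replicate). Colour is RPKM as a percent of the member's highest library, and rows are grouped by the time of the second highest mean, with the number of members in brackets. The 3 day 20 columns are the brightest, and the largest block, of 104 members, has its second highest mean at day 10.

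The name "day 20 only" holds for the height of the peak but not for absence elsewhere. At every time other than day 20 the mean was under 1 RPKM for 6 members alone. The median member stood at 1.96 RPKM in fresh ovaries, 3.27 at day 2, 9.42 at day 10, 45.2 at day 20, 3.81 at day 30 and 2.26 at day 60. The number of members with a mean under 1 RPKM was 74 in fresh ovaries, 46 in the ovules, then 14, 47 and 75 in the embryos of day 10, day 30 and day 60. The 200 members together took 0.893% ± 0.0231 of the reads at day 10, 3.81% ± 0.127 at day 20 and 0.756% ± 0.0159 at day 30 (SD, n = 3 each). These are levels in bulk RNA, in which fewer cells of a type and less RNA per cell cannot be told apart.

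The member that stood apart was Csa1G043220, a gene of 618 bases in the length recovered from the RPKM values. Its RPKM was 2.19, 3.58 and 3.27 in fresh ovaries, 1.86, 1.04 and 1.03 at day 2, 4.47, 1.60 and 2.48 at day 10, 235, 243 and 185 at day 20, 0.971, 1.96 and 0.638 at day 30 and 0.762, 0.897 and 0.692 at day 60. The 3 day 20 libraries were high and the 15 others all lay under 5, with no overlap. The day 20 level rested on 16342 reads.

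The other 9 members with the highest ratios differed in their levels outside day 20. Csa7G298840, with a ratio of 10.6, had 14.0, 13.3 and 9.74 RPKM in its day 20 libraries and a highest other mean of 0.256 at day 10. Csa3G391390 averaged 33.1 ± 3.34 RPKM at day 20 (SD, n = 3) and 2.42 at day 2, its next highest time. Csa7G019830 had 5.27, 6.14 and 3.51 RPKM at day 2, 10.2, 5.18 and 5.81 at day 10 and 70.1, 78.7 and 85.3 at day 20. In fresh ovaries this gene rested on 1 read over the 3 libraries, and at day 30 its mean was 0.378. Csa3G743950 likewise was at 0.00376 RPKM in fresh ovaries, and it averaged 19.9 ± 0.659 at day 10, 177 ± 32.7 at day 20 and 18.7 ± 4.22 at day 30 (SD, n = 3 each).

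Csa6G423400 had means of 3.84 at day 10, 60.5 at day 20, 5.73 at day 30 and 3.47 at day 60. Csa5G157230 averaged 18.5 ± 4.79, Csa6G020130 109 ± 1.43, Csa1G597190 98.5 ± 10.3 and Csa1G423060 294 ± 98.0 RPKM at day 20 (SD, n = 3 each). For Csa6G020130 the 3 day 20 libraries were nearly equal, at 108, 110.0 and 107, while day 10 split into 3.44 in replicate 1 and 15.2 in each of the other 2 libraries. Csa1G423060 had 188, 314 and 381 RPKM at day 20, and its means at the other times were 9.79 in fresh ovaries, 34.9 at day 2, 25.5 at day 10, 12.9 at day 30 and 1.80 at day 60.

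**Figure D2:**
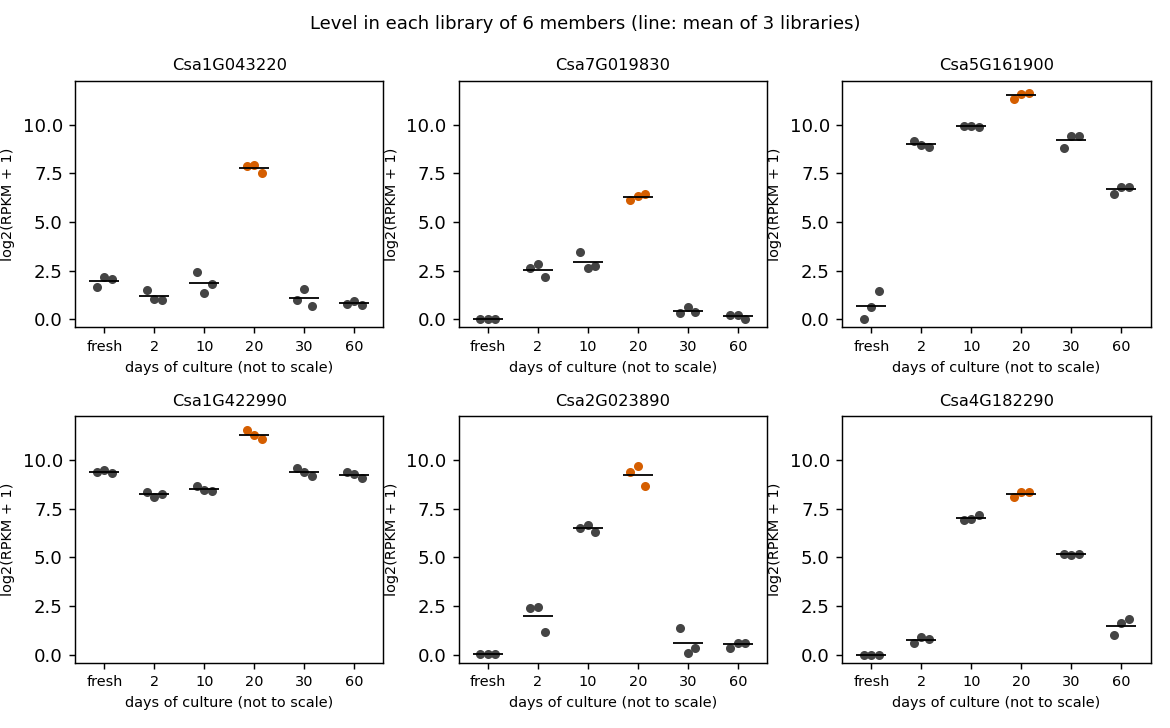
Level of 6 members in each library, as log2(RPKM + 1), over the 6 times (fresh ovaries and days of culture, not to scale); points are libraries, lines are means of 3, and day 20 is orange. Csa1G043220 is high at day 20 alone, whereas Csa1G422990 stays above 8 on this scale at every time.

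The 5 most abundant members at day 20 were abundant at some other times too. Csa5G161900 had the highest day 20 mean of all members, with 961 ± 12.2 RPKM at day 10, 2903 ± 354 at day 20 and 606 ± 139 at day 30 (SD, n = 3 each). Csa1G422990 averaged 678 RPKM in fresh ovaries, 303 at day 2, 369.8 at day 10, 2549 at day 20, 679 at day 30 and 609 at day 60, and its day 20 libraries held 3028, 2454 and 2164. Csa2G368260 averaged 19.8 RPKM in fresh ovaries, 663 at day 10 and 2126 at day 20. In fresh ovaries Csa5G161900 averaged 0.766 RPKM. The 19.8 RPKM of Csa2G368260 was low next to its day 20 mean but above the upper quartile of the members in fresh ovaries, 11.2. Csa1G422990 was not low there.

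Csa2G369020 averaged 1900 ± 127 RPKM at day 20 (SD, n = 3), and its next highest mean was 783 at day 30. Csa3G779010 averaged 1303 ± 29.7 (SD, n = 3), and its 5 other means kept between 327 and 487. This last gene had the flattest course among these 5.

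The time of the second highest mean divides the members. It fell in fresh ovaries in 17 of them, in the ovules of day 2 in 32, and in the embryos of day 10, day 30 and day 60 in 104, 37 and 10. Day 10 was above day 30 in 145 members and below it in 55. As a share of the day 20 mean, the median member stood at 5.90% in fresh ovaries, 9.62% at day 2, 23.3% at day 10, 11.3% at day 30 and 5.83% at day 60. A share under 10% was seen in 34 members at day 10, in 91 at day 30 and in 132 at day 60. Of the 6 means, the lowest was that of fresh ovaries in 75 members, of day 2 in 51, of day 10 in 5, of day 30 in 11 and of day 60 in 58.

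**Figure D3:**
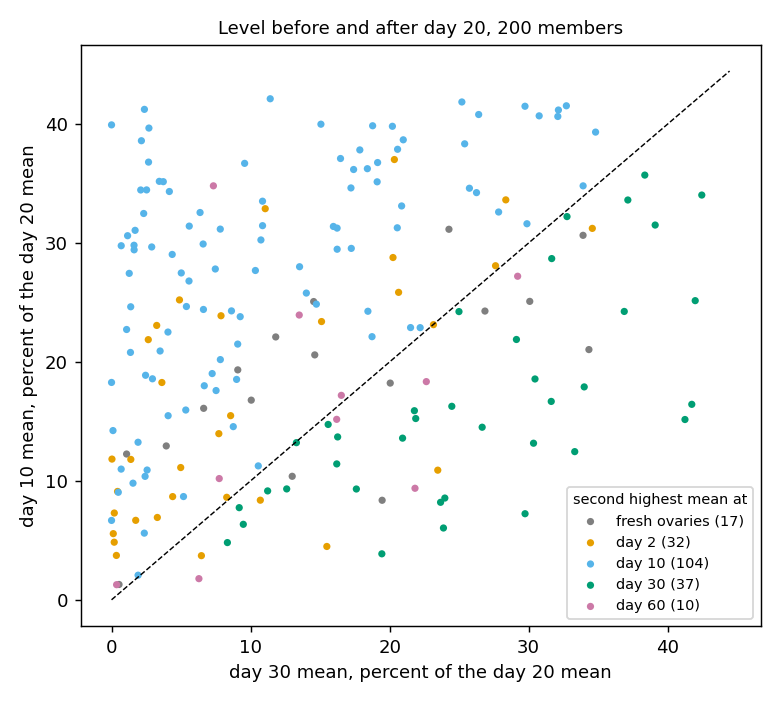
Day 10 mean against day 30 mean of the 200 members, each as a percent of the day 20 mean; colours give the time of the second highest mean and the dashed line marks equal levels. Of the points, 145 lie above the line and 55 below it, and, as the rule limits it, none exceeds 42.4% on either axis.

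For each of these 5 sets, the member whose second highest mean is the largest share of its day 20 mean is given next. Other members lie close behind, such as Csa3G716370 at 41.9% in the set of day 10 and Csa6G302190 at 42.0% in that of day 30, as the rule limits the shares from above. Csa4G182290 reached 42.1% of its day 20 mean at day 10, with 121, 126 and 142 RPKM at day 10, 270, 325 and 327 at day 20 and 35.4, 34.5 and 35.3 at day 30. It was listed at 0 in all 3 libraries of fresh ovaries. Csa5G198120 had 28.4 ± 6.27 RPKM at day 2, 3.24 ± 0.981 at day 10 and 67.0 ± 20.0 at day 20 (SD, n = 3 each), so its level had 2 separate highs.

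Csa3G779020 stood at 1113 RPKM at day 20 and 475 in fresh ovaries, Csa2G372810 at 45.0 at day 20 and 19.1 at day 30, and Csa4G638330 at 20.0 at day 20 and 8.07 at day 60. The lowest of the 6 means in these 3 genes was 148 RPKM at day 60, 9.17 at day 2 and 5.12 at day 2, so none of them was near 0 at any time.

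Differences among the other 5 times were tested, since the rule used those times only through their highest mean. limma was fitted on log2(RPKM + 1) of all 18 libraries, over the 18153 genes that reached 1 RPKM in 3 libraries. A gene counts as called when its p, adjusted after Benjamini and Hochberg over those genes, was under 0.05. All 200 members were tested, and 190 of them reached 1 RPKM in 3 of the 15 libraries outside day 20. The others passed this filter only with their day 20 libraries. They stay in the counts below, which were not made for the 190 alone. An F test over the 5 other times called 187 members, and it called 90.3% of all genes tested. Consecutive comparisons share the libraries of the time between them, so each is given by its own values.

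Most called members were higher at day 10 than at day 2. Of the 200, 139 were called, 121 higher and 18 lower at day 10, where 53.8% of all tested genes were called, 21.9% higher and 31.9% lower. The median log2 fold change was 0.78 for the members and -0.11 for all tested genes. Under median-ratio scaling of the libraries 25.6% of all tested genes were higher and 26.7% lower, with a median of -0.02. The members then split into 127 higher and 18 lower, with a median of 0.88. The largest rise was that of Csa4G182290, to 129 ± 10.9 RPKM at day 10, against 0.725 ± 0.166 at day 2 (SD, n = 3 each; log2 fold change 6.24, SE 0.16, limma adjusted p = 7.84e-14). Csa1G044890 rose to 31.9, 35.0 and 38.3 RPKM at day 10, against 0.0482, 0.104 and 0.0848 at day 2, a log2 fold change of 5.06. Csa5G198120 fell by 2.80 on the log2 scale, and Csa2G005960 fell to 3.74, 3.76 and 2.33 RPKM at day 10, against 26.5, 20.6 and 10.3 at day 2.

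From day 10 to day 30, the times on either side of day 20, most called members fell. At day 30, 141 members differed from day 10, 26 higher and 115 lower, where 53.8% of all tested genes did, 36.4% higher and 17.4% lower. Under median-ratio scaling of the libraries the members split into 20 and 119, and all genes into 4548 higher and 4444 lower, in place of 6607 and 3167. Over all genes the log2 fold change had a median of 0.21 as deposited and of 0.02 under that scaling, and over the members of -0.65 and -0.84, so the members' median lay below that of all genes either way. Csa2G023890 fell to 1.60, 0.0849 and 0.285 RPKM at day 30, against 90.8, 99.9 and 77.2 at day 10 (log2 fold change -5.87, SE 0.34, limma adjusted p = 1.00e-09). Its day 20 libraries held 664, 819 and 400.3 RPKM.

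Csa4G045040 fell to 11.6 ± 1.75 RPKM at day 30, against 250 ± 58.0 at day 10 (SD, n = 3 each), after 911 at day 20. The largest rises were in neighbours by ID, Csa6G358140 and Csa6G358130. Csa6G358140 had 9.74, 12.4 and 14.0 RPKM at day 30, against 0, 3.49 and 3.70 at day 10, a log2 fold change of 2.23, or 1.49 without replicate 1 of day 10. Csa6G358130 averaged 24.6 ± 1.75 RPKM at day 30, against 6.21 ± 1.58 at day 10 (SD, n = 3 each; log2 fold change 1.85).

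At day 60 most called members were lower again. Compared with day 30, 115 were called, 19 higher and 96 lower at day 60, where 40.3% of all tested genes were called, 17.2% higher and 23.1% lower. The median log2 fold change was -0.40 for the members and -0.04 for all tested genes. Under median-ratio scaling 19.7% of all tested genes were higher and 19.9% lower, with a median of 0.01. The members then split into 20 higher and 92 lower, with a median of -0.34. Csa4G165860 fell to 0.196 ± 0.122 RPKM at day 60, against 20.2 ± 7.59 at day 30 (SD, n = 3 each; log2 fold change -4.08, SE 0.33, limma adjusted p = 1.08e-07). Csa4G182290, the member with the largest rise at day 10, fell by 3.68 on the log2 scale between day 30 and day 60. Csa6G476070 rose to 5.74, 5.24 and 6.23 RPKM at day 60, against 0.846, 1.18 and 1.19 at day 30. Csa3G021150 had 1.31, 1.37 and 4.35 RPKM at day 60, against 0.458, 0.0661 and 0.444 at day 30 (log2 fold change 1.24, limma adjusted p = 0.00953), and its call was lost without replicate 3 of day 60, at a log2 fold change of 0.84 and a limma adjusted p of 0.0604.

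**Figure D4:**
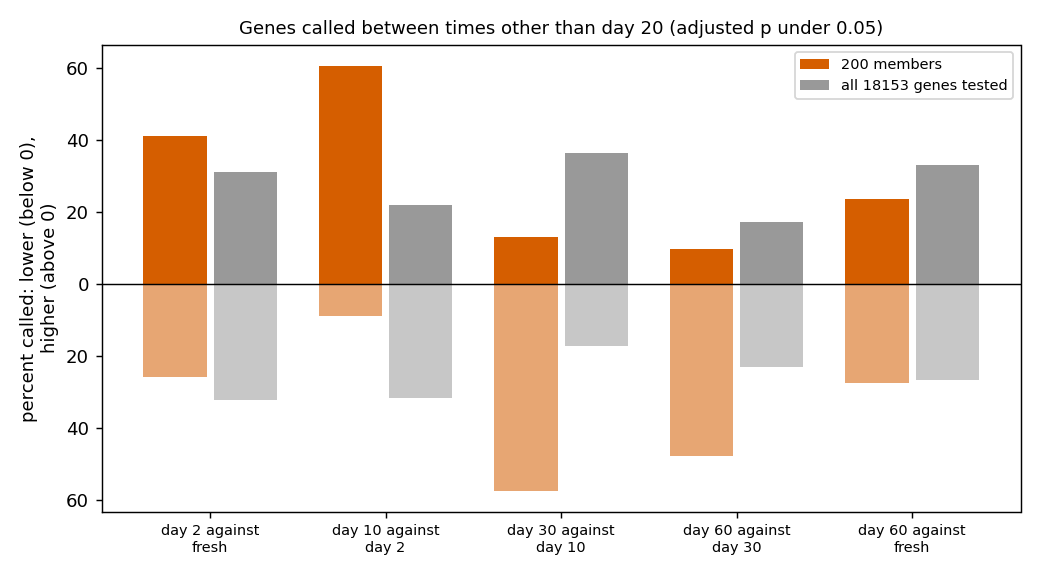
Percent of the 200 members (orange) and of all 18153 genes tested (grey) called at an adjusted p under 0.05 in 5 comparisons that leave day 20 out; dark bars above 0 are genes higher at the later time and pale bars below 0 are genes lower. Members were higher in 60.5% of cases for day 10 against day 2 and lower in 57.5% for day 30 against day 10.

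Between day 2 and fresh ovaries the called members differed in both directions. At day 2, 134 members differed from fresh ovaries, 82 higher and 52 lower, where 63.4% of all tested genes did, 31.1% higher and 32.3% lower. The median log2 fold change was 0.21 for the members and -0.02 for all tested genes. Csa5G161900 rose to 572, 494 and 454 RPKM at day 2, against 0, 0.574 and 1.72 in fresh ovaries, a log2 fold change of 8.28 (SE 0.26, limma adjusted p = 5.15e-13). Csa6G500440 rose to 75.7 ± 2.66 RPKM at day 2, against 0.221 ± 0.110 in fresh ovaries (SD, n = 3 each). Both are thus members whose level was high in culture before any embryo was sampled.

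Csa1G257330 fell to 3.84 ± 0.326 RPKM at day 2, against 29.8 ± 2.71 in fresh ovaries (SD, n = 3 each), and then stood at 44.9 at day 10 and 108 at day 20. Csa6G523420 fell to 0, 0 and 0.439 RPKM at day 2, against 5.24, 4.65 and 3.15 in fresh ovaries. It rested on 9 reads in replicate 3 of day 2 and on 65, 59 and 83 in fresh ovaries.

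Between day 60 and fresh ovaries, the end and the start of the series, the called members split nearly evenly. This comparison sets embryos against ovaries, so time and tissue cannot be told apart in it. At day 60, 102 members differed from fresh ovaries, 47 higher and 55 lower, where 59.7% of all tested genes did, 33% higher and 26.7% lower. The median log2 fold change was 0.02 for the members and 0.08 for all tested genes. Csa5G161900 was still at 102 ± 14.1 RPKM at day 60, against 0.766 ± 0.878 in fresh ovaries (SD, n = 3 each), a log2 fold change of 5.98, and Csa6G500440 was at 16.2 RPKM at day 60, against 0.221 in fresh ovaries, a log2 fold change of 3.81. Csa4G045040 fell to 3.42, 3.37 and 2.46 RPKM at day 60, against 103, 109 and 71.6 in fresh ovaries. Csa1G043200 fell to 27.5 ± 3.60 RPKM, against 214 ± 25.3 in fresh ovaries (SD, n = 3 each; log2 fold change -2.91).

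Some members lie close to each other by ID. With IDs sorted within each prefix, 37 members, 18.5%, had another member as the next ID or the next but 1, in 17 pairs and 1 run of 3. No such share was computed for other sets of genes, and steps between sorted IDs are no measure of distance. The run is Csa1G044870, Csa1G044880 and Csa1G044890, with day 20 means of 23.3, 38.5 and 85.0 RPKM and day 10 means of 8.56, 9.47 and 35.1. All 3 stood between 0.530 and 2.23 RPKM at day 30. Among the pairs, Csa1G043220 lies next but 1 to Csa1G043200, which had 527 RPKM at day 20 and 214 in fresh ovaries, and the gene between them was listed at 0 in every library. Csa1G597190 lies next to Csa1G597180, which had 4.70, 10.9 and 12.2 RPKM at day 20. Its day 20 mean was thus 9.27 RPKM next to 98.5 in Csa1G597190. Other pairs were closer in level, such as Csa3G779010 and Csa3G779020 with day 20 means of 1303 and 1113 RPKM.

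Another stretch, picked after its values were seen, runs from Csa6G088160 to Csa6G088710 and holds 4 members among 6 IDs. Their day 20 means were 47.9, 80.6, 57.2 and 49.8 RPKM, their day 10 means 14.3, 18.3, 11.9 and 14.7, and none was over 1.21 at any other time. The 2 IDs between them were at 0.707 and 0 RPKM at day 20. The Csa7G IDs from Csa7G018750 to Csa7G019830, also picked by hand, hold 4 members among 11. A further picked stretch, from Csa1G422990 to Csa1G423060, holds 2 members among 8.

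The genes next to members by ID were looked at in the same way. Of 227 such neighbours that are no members and had a mean of at least 5 RPKM at some time, 51, or 22.5%, had their highest mean at day 20, against 8.68% of the 13914 other genes at that level that are no members, a group that includes the neighbours. The difference of these shares was not tested. Adjacent genes may overlap or be near-identical copies that share reads. The sources used here do not say whether the counting used strand, and the part of shared reads in these values was not tested.

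Members were spread over the 7 numbered ID prefixes. Csa6G held 47 of its 3813 genes, 1.23%, and Csa2G 17 of 2850, 0.596%, where members are 0.860% of all genes. None was among the 272 CsaUNG IDs. The recovered length of the members had a median of 1158 bases and quartiles of 689 and 2272, against a median of 2854 and quartiles of 1573 and 4399 for the 10603 genes with at least 5 RPKM at day 20, members included, a difference that was not tested. The shortest member had 159 bases and the longest 8552. The sources used here do not say whether this length counts introns.

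The 3 day 20 libraries were close for most members. The SD was 14.4% of the mean at the median member, and 13.0% at the median of the 10603 genes with at least 5 RPKM at day 20. It was under 10% in 57 members and over 50% in 4. The steadiest was Csa3G872740, at 387, 385 and 384 RPKM, followed by Csa6G020130 and Csa7G390170. The most variable was Csa4G297470, at 14.2, 4.59 and 1.89 RPKM on 130, 51 and 43 reads. Next were Csa3G865430, at 15.8, 6.15 and 3.43 RPKM, and Csa4G056690, at 18.8, 9.23 and 6.52. In these 3 genes replicate 1 alone carried most of the mean.

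Over all members replicate 1 of day 20 was the lowest library in 103 and the highest in 62, and replicate 3 the highest in 79. Replicate 3 exceeded replicate 1 over 1.5-fold on (RPKM + 1) in 35 members, 17.5%, against 8.60% of the genes with at least 5 RPKM at day 20. The reverse held in 18 members, 9%, and in 8.29% of those genes. Replicates 1 and 3 also differ in depth, at 26.7 and 66.5 M reads, and the part of depth was not tested. The difference of replicate 3 from replicate 1 had the same sign at day 10 as at day 20 in 74.7% of the 186 members with a mean of at least 1 RPKM at day 10. For such members at the other times this share was 69.8% (fresh ovaries), 62.3% (day 2), 64.1% (day 30) and 64.8% (day 60). For this difference the share over all genes was not computed. The Pearson r of this difference between day 20 and another time, across the members with a mean of at least 1 RPKM at that time, was 0.37 for fresh ovaries (126 members), 0.51 for day 2 (154), 0.35 for day 10 (186), 0.44 for day 30 (153) and 0.54 for day 60 (125). The members share the 4 libraries behind each of these values and are no independent points.

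**Figure D5:**
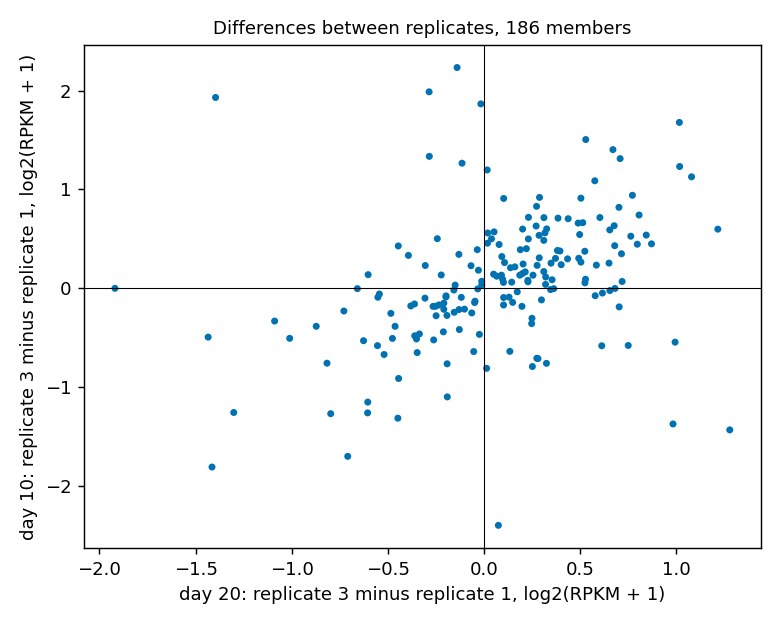
Difference of replicate 3 from replicate 1, in log2(RPKM + 1), at day 20 (horizontal) and at day 10 (vertical) for the 186 members with a day 10 mean of at least 1 RPKM. Of the points, 74.7% have the same sign at both times.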

How the data were processed

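RNA was measured in 18 poly(A)-selected, paired-end Illumina libraries, per the labels' protocols. The extraction text speaks of an adipose type, which does not apply to a plant. The submitters' processing notes name TopHat, TopHat2 and HTSeq 0.6.1p2 without a role. The genome build, the annotation and strand use of the counting are not stated there. The authors deposited RPKM values, as the file headers name them, for each library. In the fresh ovary table the 3 names share 1 header field, and their order was used for its columns.

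Library totals, reads and gene lengths were worked out from the whole-read steps of the values. A length that made the reads whole, within 0.1, in every library was found for all 21761 genes above 0, and reads summed to between 99.9996% and 99.9999% of the totals. Each length taken was the smallest that gave whole reads. In the deposited data the totals of 2 libraries were corrected by a factor during the recovery. The recovery was tested on simulated data, where a shared factor had first set totals too high and was then corrected. That simulation is therefore no independent check of the correction. Reads without molecular identifiers are no independent molecules.

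The tests used limma 3.58.1 (R 4.3.3) and log2(RPKM + 1) values, with trended, robust empirical Bayes variance, 1 coefficient per time and no replicate block. Fold changes on this scale understate those of low genes. RPKM does not correct for the make-up of the RNA, so rescaling was tried. The labels give no batch. Python 3.11.15 with numpy 2.4.6, pandas 2.3.3 and matplotlib 3.10.9 did the rest.

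The members, contrasts and rules for named genes were chosen with earlier results of these data known. Named were the 10 members with the highest ratio, the 5 with the highest day 20 mean, the 3 with the lowest ratio and the 3 genes just outside the limit, up to 2 called members a direction and contrast, the 3 least and 3 most variable at day 20, the extreme of each second highest time and the first 3 runs of IDs.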

Additional observations from a re-analysis of the deposited data

How the results depend on the processing

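All 415 alternative counts of called members, over filters, pseudocounts, scalings, sets of libraries, the replicate block and voom, stayed within 1.5 times the reported count. Voom on the recovered reads was chosen after seeing the data. Of 520 alternatives of the 20 named fold changes, 519 kept direction and call, and the exception was Csa3G021150. A pseudocount of 0.1 in place of 1 moved 12 of the 20 by over 1.5 times, voom also moved 12, and leaving out replicate 1 of day 10 moved 1, that of Csa6G358140. The pseudocount gave log2 fold changes of 9.99 for Csa5G161900 and -4.63 for Csa6G523420 at day 2 against fresh ovaries. Since these genes were picked for large changes, this does not carry over to others. With the replicate block the members called were 149 for day 2 against fresh ovaries, 148 for day 10 against day 2, 148 for day 30 against day 10, 123 for day 60 against day 30 and 116 for day 60 against fresh ovaries, in place of 134, 139, 141, 115 and 102. Same-numbered libraries deviated together at r of 0.07 to 0.65, over 0.1 in 43 of 45 pairs. All 18 libraries correlated best with their own number, which is a hint from the data and not from the design. The r was 0.48 to 0.65 for replicate 3 and 0.07 to 0.41 for replicates 1 and 2. Replicate 3 was also the deepest at every time, at 48.9 to 72.5 M reads against 21.8 to 34.0 M. The part of depth in these r was not tested. Dropping any 1 library gave these ranges of members called, in the order of the comparisons listed for the replicate block. They were 120 to 141, 131 to 142, 129 to 143, 103 to 118 and 91 to 108. The 2 libraries left were assumed to vary like the others. The rule at a 3-fold margin kept 118 genes. The limit of 200 was reached by each other version, with 181 to 200 members shared when 1 library was left out, 189 with libraries scaled by median ratios, 197 by upper quartiles and 183 with medians. Median-ratio scaling gave median shares of the day 20 level of 5.34% for fresh ovaries, 8.63% for day 2, 9.41% for day 30 and 5.06% for day 60. Upper quartile scaling gave 5.45% for fresh ovaries, 21.6% for day 10 and 10.5% for day 30. With 1 library left out the shares were 5.90% to 6.40% for fresh ovaries and 11.0% to 12.0% for day 30. Depth limits the lowest members, whose levels outside day 20 rest on few reads.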

Other observations

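In a few members 1 replicate number lay at the same end at all 6 times. Among the 93 members with a mean of at least 1 RPKM at every time, replicate 3 was the highest library at all 6 times in 11, or 11.8%, and the lowest at all 6 in 5, or 5.38%. Among the 13895 other genes at that level these shares were 11.6% and 8.93%. Csa3G716370 was 1 of the 5, with 54.8, 66.3 and 14.2 RPKM in fresh ovaries, 35.5, 39.8 and 3.86 at day 2 and 125, 195 and 76.2 at day 20. Csa1G423060 and Csa7G018770, 2.15% of the 93 members, had their lowest value in replicate 1 at all 6 times. The same held in 2.17% of the 13895 other genes.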
